A study of Homo sapiens with 4 samples.

Results

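The subject is the granin family and the prohormone processing genes of dense-core secretory granules, measured in the human neuroblastoma cell line Kelly. The list holds 10 gene symbols, and members were found as probe sets that the array's annotation assigns to exactly 1 of these symbols. Of the 10 genes, 8 had at least 1 such probe set, with 16 probe sets in all among 49293 cellular probe sets. These were CHGA, CHGB, SCG2, SCG3, SCG5, VGF, PCSK1N and CPE. The convertase genes PCSK1 and PCSK2 were not analysed here. All 8 genes passed the filter on dim genes and were among the 10946 genes tested, of 18244 with a probe set of their own, and 15 of the 16 probe sets lay above the filter.

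The first group was shBORIS, Kelly cells that had become resistant to the ALK kinase inhibitor TAE684 and carried a viral hairpin against BORIS. BORIS is the product of CTCFL, a germ-line paralog of the DNA-binding protein CTCF. The second group was shLUC, the same resistant cells with a hairpin against luciferase. Each group had 2 arrays, which the labels call biological duplicates. Both groups were grown in 1 µM TAE684, exposed to virus with polybrene for 24 h and selected in puromycin for 48 h. One hairpin against BORIS was used, so effects of reduced BORIS and other effects of that hairpin cannot be told apart. The question is which mRNAs change when BORIS is lowered in a cell population resistant to ALK inhibition.

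Dense-core granules store peptide hormones, neuropeptides and, in sympathoadrenal cells, catecholamines until a calcium signal releases them. Granins are acidic, secreted proteins that condense in the trans-Golgi network, help to form the granule core and are themselves cut into peptides. Prohormone convertases cut precursors after pairs of basic residues, carboxypeptidase E trims the basic residues left behind, and small granin-like proteins chaperone or inhibit the convertases. Neuroblastoma arises from the sympathoadrenal lineage, and chromogranin A is a standard marker of its neuroendocrine character.

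Values are deposited probe set intensities on a linear scale. The hairpin's target was lower: the brightest CTCFL probe set averaged 719 ± 25.7 on shBORIS arrays and 3470 ± 133 on shLUC arrays (SD, n = 2 each), a log2 difference of -2.25 as deposited (SE 0.11). Of the 7 CTCFL probe sets 5 fell as deposited, 1 did not pass (0.11, limma adjusted p = 0.404) and the dimmest rose by 0.39 (limma adjusted p = 0.00165), at 55.3 in shBORIS and 38.6 in shLUC. The median cellular probe set read 80.8 and 84.5 on shBORIS arrays, against 64.4 and 60.4 on shLUC arrays. The median of the added ERCC control RNAs lay between 24.4 and 25.8 on all 4 arrays, under the filter on dim genes (intensity 62.2). Whether the higher cellular median is one of array scale was not tested. The log2 value of the median tested gene was 0.48 higher in shBORIS. Each difference is therefore given on both scales: as deposited, and against the median gene (relative to it), that is, after subtraction of each array's median log2 value over the tested genes. On the 4 arrays, 9 markers of noradrenergic neuroblastoma were measured and all 9 passed the filter. Of the Schwann cell and glial markers 1 of 5 measured passed the filter (summed intensity 223 and 244 in shBORIS, 247 and 223 in shLUC), and of the fibroblast, endothelial and immune markers 2 of 9 (384 and 385 in shBORIS, 371 and 328 in shLUC); none was at 0. The glial markers below the filter are named after their values were seen. ERBB3 (23.0 in shBORIS, 70.2 in shLUC) and FABP7 (21.2 in shBORIS, 27.0 in shLUC) read lower in shBORIS. SOX10 (71.0 in shBORIS, 47.2 in shLUC) and S100B (39.5 in shBORIS, 31.2 in shLUC) read higher. GFAP, which passed the filter only through its shBORIS arrays, read 78.9 in shBORIS and 59.3 in shLUC. The noradrenergic markers summed to 18556 and 19438 in shBORIS, against 16830 and 16242 in shLUC. Relative to the median gene 2 rose (ALK by 0.96 and DBH by 0.39) and 7 fell, beside 30.3% of all tested genes higher and 28.8% lower. RNA integrity was read from the 3′ over 5′ ratio of the ACTB control probe sets, which stood at 1.36 and 1.32 in shBORIS and at 1.46 and 1.38 in shLUC. The part of these markers and of RNA integrity in the results was not tested. In such bulk RNA, fewer cells of a type and less RNA per cell cannot be told apart.

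The promoter windows of 3 members are shown, SCG3 as a gene that rose and SCG5 and VGF as the genes with the largest falls relative to the median gene. The windows of the other members are not reported, so these 3 are not a survey of which members hold a motif. Each window runs from 250 bases before to 50 bases after a transcript start, is printed 5′ to 3′ on the gene's strand, and comes from RefSeq (GRCh38.p14). It lies at chr15:51681253-51681552 on the plus strand for SCG3, at chr15:32641460-32641759 on the plus strand for SCG5 and at chr7:101165520-101165819 on the minus strand for VGF. Capitals mark the cAMP response element TGACGTCA and its half-site TGACG, searched on both strands; a half-site on the opposite strand reads CGTCA, and one within a full element is not counted again.
SCG3: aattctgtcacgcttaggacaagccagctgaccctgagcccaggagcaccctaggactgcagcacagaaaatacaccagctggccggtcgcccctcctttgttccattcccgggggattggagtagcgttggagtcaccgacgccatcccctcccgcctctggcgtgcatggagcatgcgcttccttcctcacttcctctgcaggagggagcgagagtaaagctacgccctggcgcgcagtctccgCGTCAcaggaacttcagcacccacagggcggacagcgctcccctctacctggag
SCG5: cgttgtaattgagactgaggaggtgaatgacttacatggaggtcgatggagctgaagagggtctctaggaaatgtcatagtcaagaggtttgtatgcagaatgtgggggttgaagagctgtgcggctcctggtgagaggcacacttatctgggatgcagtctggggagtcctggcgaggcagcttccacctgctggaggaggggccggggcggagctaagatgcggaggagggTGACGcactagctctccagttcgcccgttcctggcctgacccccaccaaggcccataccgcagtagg
VGF: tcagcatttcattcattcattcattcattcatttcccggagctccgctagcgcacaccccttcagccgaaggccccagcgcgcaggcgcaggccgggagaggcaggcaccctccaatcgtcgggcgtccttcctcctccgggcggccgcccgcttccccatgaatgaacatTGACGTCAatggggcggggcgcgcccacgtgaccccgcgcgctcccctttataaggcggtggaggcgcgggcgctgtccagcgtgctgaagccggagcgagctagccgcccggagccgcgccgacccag

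Of these 3 windows, that of VGF held the full element TGACGTCA, with its first base 79 bases before the start. It is present in 1.85% of all 35116 windows. Those of SCG3 and SCG5 held only the half-site, which stands in 24.6% of all windows when full elements are counted too. Among tested genes with the full element, 32.7% of 361 rose and 29.9% fell relative to the median gene, against 31.3% and 28.3% of the 8693 tested genes whose windows lack it. A match is a description of letters only, binding was not measured, and nothing about the direction of change is read from these windows.

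In shBORIS cells the members did not move as a unit. CHGA rose far more than the others, SCG3 rose by a smaller amount, CHGB and SCG2 did not pass the test relative to the median gene, and SCG5, VGF, PCSK1N and CPE fell relative to it. As deposited, 6 of the 8 member genes rose, 0 fell and 2 did not pass the test, beside 77.2% of all tested genes higher and 4.64% lower. Relative to the median gene 2 rose, 4 fell and 2 did not pass, beside 30.3% of all tested genes higher and 28.8% lower. The members' median log2 difference was 0.38 as deposited, against 0.48 over all tested genes, and -0.09 relative to the median gene. As deposited the share of members that rose is close to that of all genes. The 4 of 8 that fell relative to the median gene is a larger share than that of all genes, but with 8 genes chosen by name this was not tested. Calls are from limma at an adjusted p of 0.05.

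**Figure D1:**
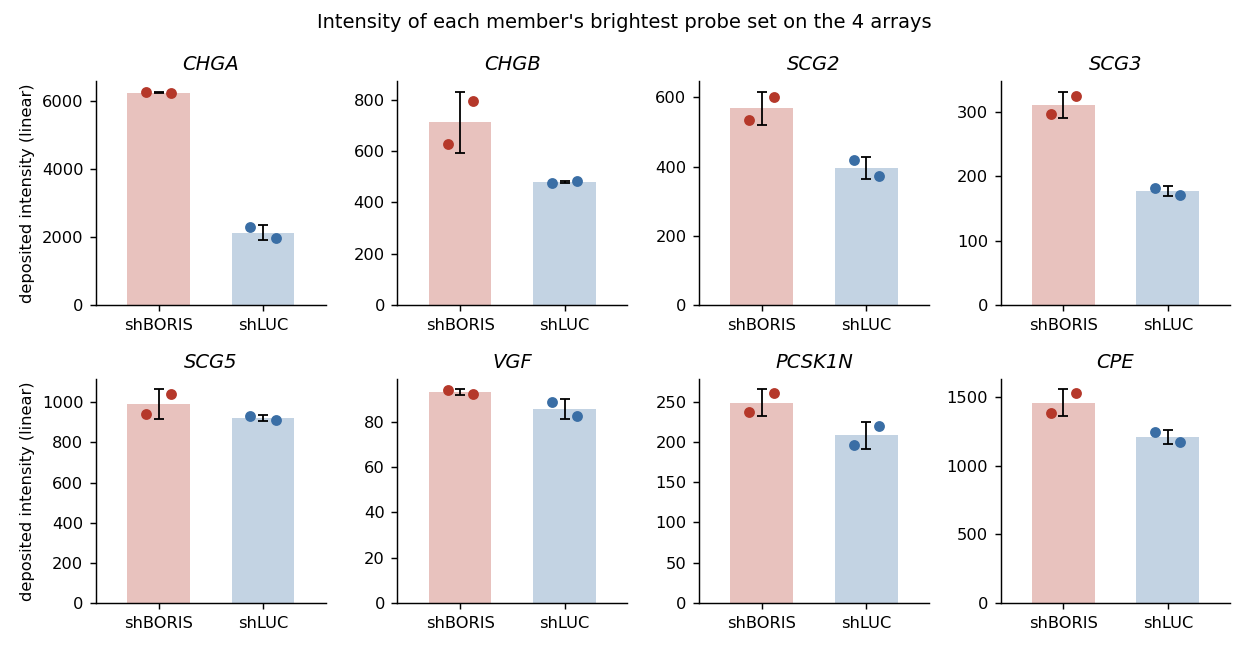
Deposited intensity (linear axis from 0) of the brightest probe set of each measured member; points are arrays, bars are means and error bars are SDs (n = 2), with shBORIS on the left of each panel. CHGA averaged 6255 in shBORIS and 2133 in shLUC, while SCG5 averaged 992 in shBORIS and 923 in shLUC.

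CHGA encodes chromogranin A, the founding granin and precursor of several peptides, among them pancreastatin and catestatin. Its single probe set read 6272 and 6239 on the shBORIS arrays, against 2292 and 1974 on the shLUC arrays. Both shBORIS values stood far above both shLUC values. The fold was 2.93 as deposited (log2 1.55, SE 0.10; limma adjusted p = 1.72e-56) and 2.10 against the median gene (log2 1.07 with an SE of 0.05; limma adjusted p = 5.24e-07). Only 27 of the other tested genes, 0.247% of all tested, had a larger relative difference. CHGA was also unusual for its brightness. Of 167 tested genes brighter than CHGA, 4 rose on that scale and 132 fell, with a median of -0.27 and a highest value of 0.37. Brightness here is the mean over both groups, so it includes the rise of CHGA itself. The brightest of 10 bins by mean intensity, which holds CHGA, had a median relative difference of -0.0077. As there is 1 probe set for CHGA, no other probe set bears on this value.

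CHGB encodes chromogranin B, which together with chromogranin A makes up much of the granule matrix of chromaffin cells. Its brightest probe set read 627 and 796 on the shBORIS arrays, against 476 and 483 on the shLUC arrays. The shBORIS arrays were higher, but they differed from each other by more than the lower of them differed from shLUC. As deposited the log2 difference was 0.55 (SE 0.11; limma adjusted p = 3.76e-06). Against the median gene it was 0.07 (95% interval -0.11 to 0.25; limma adjusted p = 0.5). All 4 CHGB probe sets gave nearly the same picture, from 0.51 to 0.59 as deposited and from 0.03 to 0.11 against the median gene. The relative value without shBORIS replicate 2 was -0.06.

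SCG2 encodes secretogranin II, the precursor of secretoneurin. Its probe set read 533 and 602 on the shBORIS arrays, against 418 and 373 on the shLUC arrays. The groups did not overlap as deposited. The log2 difference was 0.50 (SE 0.11; limma adjusted p = 1.80e-05). Once each array was centred on its median gene the groups overlapped, with a difference of 0.03 (95% interval -0.11 to 0.16; limma adjusted p = 0.725), and without shBORIS replicate 2 it was -0.01.

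SCG3 encodes secretogranin III, which binds chromogranin A and cholesterol-rich granule membranes. Its brightest probe set read 297 and 326 on the shBORIS arrays, against 182 and 172 on the shLUC arrays. The fold was 1.69 as deposited (log2 0.76, SE 0.11; limma adjusted p = 1.16e-11). Against the median gene SCG3 rose by 0.28 (SE 0.06; limma adjusted p = 0.00304), and 20.1% of tested genes had a larger difference. SCG3 was the member with the next largest rise after CHGA. The other SCG3 probe sets averaged 131 and 82.1 on shBORIS arrays, against 77.2 and 46.4 on shLUC arrays. Both were higher as deposited, by 0.66 and 0.65, and read 0.18 each relative to the median gene without passing the test (limma adjusted p = 0.0894 and 0.133).

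SCG5 encodes 7B2, a chaperone that the convertase PC2 (the product of PCSK2) needs to mature. It read 940 and 1043 on the shBORIS arrays, against 934 and 912 on the shLUC arrays. The lower shBORIS array lay within a few units of the higher shLUC array. As deposited the difference was 0.10 (95% interval -0.12 to 0.32; limma adjusted p = 0.403). Against the median gene SCG5 fell by 0.38 (SE 0.05; limma adjusted p = 2.15e-04), with centred log2 values of 1.64 and 1.70 in shBORIS and 2.01 and 2.08 in shLUC. Genes of similar brightness, the ninth of 10 bins by mean intensity, had a median of 0.14 on that scale.

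VGF encodes a growth-factor-inducible granin that yields several neuropeptides. Its brighter probe set read 94.0 and 92.4 on the shBORIS arrays, against 88.8 and 82.6 on the shLUC arrays. These intensities are low, in the next-to-dimmest of the 10 bins, whose median relative difference was -0.09. As deposited VGF differed by 0.10 (95% interval -0.11 to 0.32; limma adjusted p = 0.382), and relative to the median gene it fell by 0.37 (SE 0.08; limma adjusted p = 0.0029). The other probe set, at 60.3 ± 0.57 in shBORIS and 56.3 ± 3.52 in shLUC (SD, n = 2 each), is the 1 member probe set below the filter. Its difference was 0.08 as deposited, and -0.40 against the median gene.

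PCSK1N encodes proSAAS, a granin-like protein whose C-terminal part inhibits the convertase encoded by PCSK1. Its brighter probe set read 237 and 261 on the shBORIS arrays, against 196 and 220 on the shLUC arrays. The groups did not overlap, although the gap was no larger than the spread within either group. PCSK1N rose by 0.24 as deposited (SE 0.11; limma adjusted p = 0.0317). Against the median gene it fell by 0.24 (log2 -0.24 with an SE of 0.09; limma adjusted p = 0.0372). The other probe set read 0.23 as deposited, which did not pass (limma adjusted p = 0.0609), and it also fell against the median gene, by 0.24. Both calls of PCSK1N were lost without single arrays. As deposited it read 0.18 without shBORIS replicate 2 (limma adjusted p = 0.23) and 0.16 without shLUC replicate 1 (limma adjusted p = 0.246). Relative to the median gene it read -0.22 without shBORIS replicate 1 (limma adjusted p = 0.0794) and -0.10 without shLUC replicate 2 (limma adjusted p = 0.301). With the median of all cellular probe sets subtracted in place of that of the tested genes it read -0.09 (limma adjusted p = 0.36).

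CPE encodes carboxypeptidase E, the exopeptidase of the granule, which has also been described as a sorting receptor. Its brighter probe set read 1388 and 1527 on the shBORIS arrays, against 1244 and 1175 on the shLUC arrays. It rose by 0.26 as deposited (SE 0.11; limma adjusted p = 0.0204). Against the median gene it fell by 0.21 (log2 -0.21 with an SE of 0.05; limma adjusted p = 0.00434). The other CPE probe set differed. It read 1192 and 1176 on the shBORIS arrays, against 920 and 761 on the shLUC arrays, rose by 0.49 as deposited and stood at 0.02 relative to the median gene (limma adjusted p = 0.85). Its name ends in _s_at, Affymetrix's mark for probes that match more than 1 transcript. The probe sets used below for PAM, PCSK7, FURIN, PHOX2A, INSM1, NMU and NPPC carry the same mark. With the mean of both probe sets the relative difference of CPE was -0.06 (limma adjusted p = 0.297), so the relative fall rests on 1 probe set. It was also lost with the median of all cellular probe sets subtracted (-0.07, limma adjusted p = 0.367). As deposited the call was lost without shBORIS replicate 2 (0.20, limma adjusted p = 0.176) and without shLUC replicate 2 (0.22, limma adjusted p = 0.153).

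**Figure D2:**
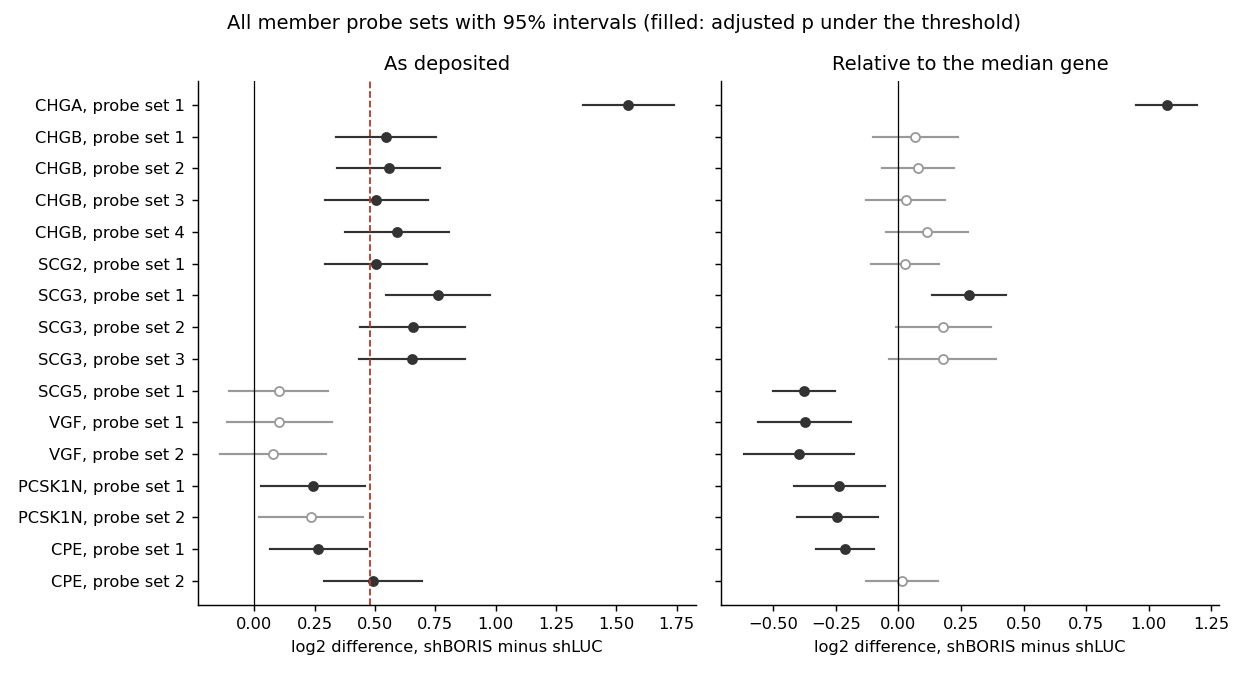
Log2 difference (shBORIS minus shLUC) of all 16 member probe sets with 95% intervals, as deposited (left, dashed line at the median gene's 0.48) and against the median gene (right); probe sets of a gene are numbered from the brightest, and filled points passed the test. CHGA stands at 1.55 and 1.07, and every SCG5, VGF and PCSK1N probe set lies left of the dashed line.

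Probe sets of the same gene mostly gave the same sign. In the fit over all cellular probe sets, 12 of the 16 member probe sets rose as deposited, 0 fell and 4 did not pass, beside 51.8% of all cellular probe sets higher and 3.22% lower. Relative to the median gene 2 rose (CHGA and the brightest of SCG3), 6 fell and 8 did not pass, beside 16.4% of all cellular probe sets higher and 46.2% lower. Above the filter lay 15 of the 16 member probe sets, but only 26690 of the 49293 cellular probe sets. The shares over all cellular probe sets include the dim ones and are not like for like with the members. Probe sets of a gene share its RNA and are not replicates. Without shLUC replicate 2, the number that fell relative to the median gene was 3 in place of 6.

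**Figure D3:**
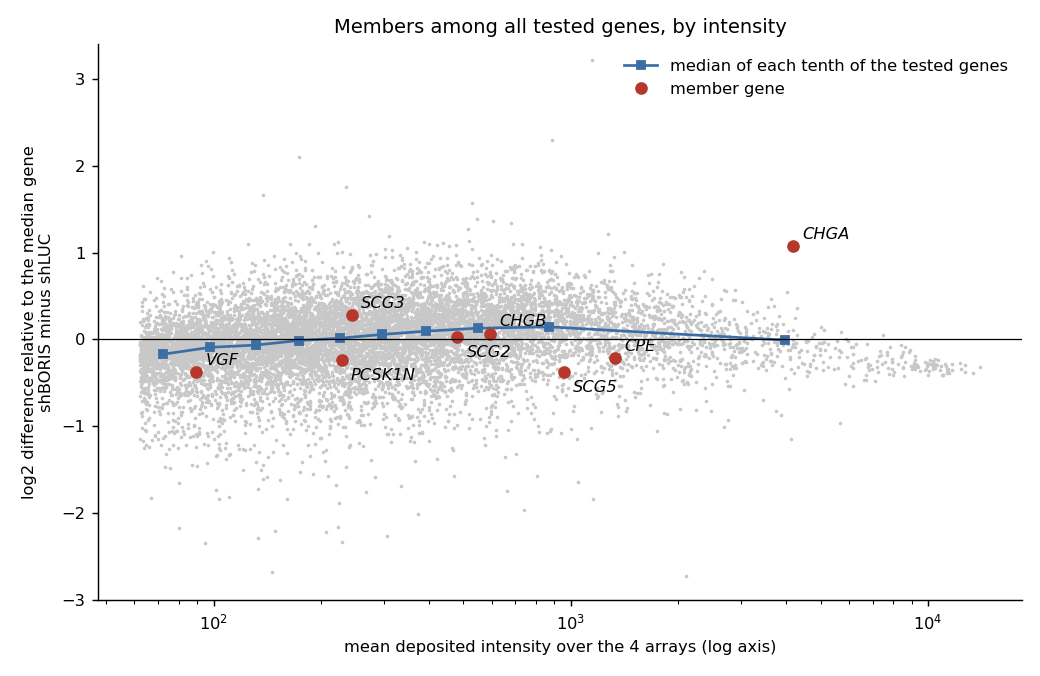
Log2 difference relative to the median gene (vertical axis) against mean deposited intensity over the 4 arrays (horizontal log axis) for all 10946 tested genes (grey), with the 8 measured members in red and the median of each of 10 bins of genes in blue. CHGA lies at 1.07, above genes of its brightness, and SCG5 at -0.38, below them.

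The unequal change of the members can be read within each array, where the scale of the array nearly cancels. It does not cancel fully for dim genes such as VGF, because 16 was added to each intensity before the log. The log2 value of CHGA minus that of SCG3 was 4.33 and 4.19 on the shBORIS arrays, against 3.54 and 3.41 on the shLUC arrays, so CHGA changed by 0.79 more than SCG3. The same difference of CHGA over SCG5 was 2.72 and 2.56 on the shBORIS arrays, against 1.28 and 1.10 on the shLUC arrays, which makes 1.45. SCG3 over SCG5 read -1.61 and -1.63 on the shBORIS arrays, against -2.26 and -2.30 on the shLUC arrays, a change of 0.66. CHGB over SCG2 overlapped between the groups, with a change of 0.04, and so did SCG5 over VGF, with a change close to 0. Of the 28 pairs of measured members, 24 did not overlap between the groups, including all 7 pairs with CHGA. Among all pairs of tested genes 80.4% did not overlap, so the count over members is near that of any genes. With 2 arrays in each group the smallest two-sided p of an exact permutation test is 0.333, and these differences were not tested.

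**Figure D4:**
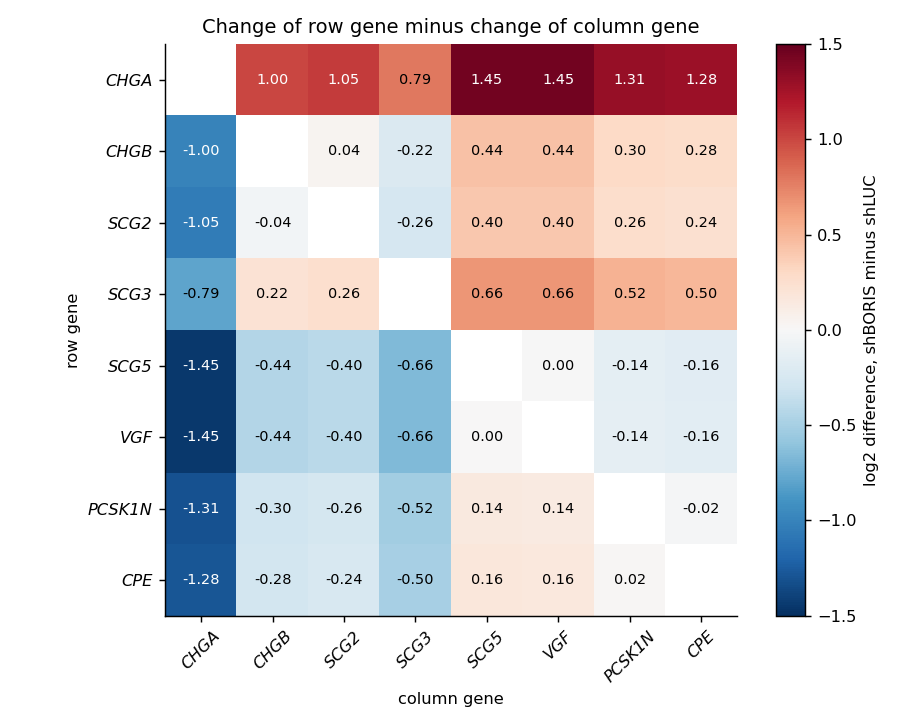
Log2 change (shBORIS minus shLUC) of the row gene minus that of the column gene, for the brightest probe sets of the 8 measured members, on log2 values within each array; red means that the row gene changed more upwards. The CHGA row runs from 0.79 against SCG3 to 1.45 against SCG5, and CHGB against SCG2 is 0.04.

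On the array level, all 8 member genes had both shBORIS values above both shLUC values as deposited, as did 83.8% of tested genes. Relative to the median gene 2 members did not overlap with shBORIS higher and 4 with shBORIS lower, beside 40.4% and 39% of tested genes. By Euclidean distance over the 4 centred arrays, the tested genes nearest in pattern to CHGA were RAD51AP1 (distance 0.021), ASPM (0.043) and NUP50 (0.047). RAD51AP1, for example, averaged 688 ± 7.01 in shBORIS and 225 ± 24.1 in shLUC (SD, n = 2 each). The nearest to SCG5, the member with the largest relative fall, were RPL7A (0.008), TNFRSF1A (0.016) and PDLIM7 (0.017). These distances rest on 4 arrays in 2 groups.

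Other enzymes that process secreted precursors also went both ways. Of 14 listed, 9 were tested. As deposited 7 rose, 0 fell and 2 did not pass (median 0.56), beside 77.2% of all tested genes higher and 4.64% lower. Relative to the median gene 3 rose, 2 fell and 4 did not pass (median 0.08), beside 30.3% higher and 28.8% lower. PAM, which amidates the C-terminal end of many neuropeptides, averaged 975 in shBORIS and 583 in shLUC and rose by 0.25 against the median gene (SE 0.05), but read 0.13 after quantile normalization (limma adjusted p = 0.0786). MBTPS1, the site-1 protease of the Golgi, rose by 0.24 (SE 0.09) by its brightest probe set. With the mean of its probe sets MBTPS1 was called lower, at -0.17 (limma adjusted p = 0.031). Its call as higher was lost without shBORIS replicate 2 (0.18) or shLUC replicate 1 (0.12). CPD, the carboxypeptidase of the trans-Golgi network, rose by 0.18 (limma adjusted p = 0.0456), a call lost after quantile normalization and without any 1 of 3 arrays. It was also lost with the mean of its probe sets (0.10, limma adjusted p = 0.142) and with the 60th percentile filter (0.10, limma adjusted p = 0.202). QPCT, which forms the cyclic N-terminal residue of some peptides, averaged 299 in shBORIS and 334 in shLUC and fell by 0.63 against the median gene (log2 -0.63, SE 0.07). The convertase gene PCSK7 fell by 0.33 (log2 -0.33, SE 0.09), and its call was lost without shBORIS replicate 1 (-0.24, limma adjusted p = 0.0647) or after quantile normalization (-0.23, limma adjusted p = 0.0507). Neither passed as deposited, QPCT at -0.15 (limma adjusted p = 0.198) and PCSK7 at 0.15 (limma adjusted p = 0.211). FURIN, the convertase of the constitutive pathway, was higher by 0.56 as deposited and read 0.08 against the median gene (limma adjusted p = 0.436).

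Several genes of granule biogenesis fell relative to the median gene. Of 20 listed, 17 were tested. As deposited 9 rose, 1 fell and 7 did not pass (median 0.40), beside 77.2% of all tested genes higher and 4.64% lower. Relative to the median gene 0 rose, 8 fell and 9 did not pass (median -0.08), beside 30.3% higher and 28.8% lower. The count of 0 depends on the centring: 4 rose and 7 fell with the median of all cellular probe sets subtracted, 4 rose and 8 fell with no filter, and without shBORIS replicate 2 or shLUC replicate 1, 1 rose. SORL1, a sorting receptor, averaged 184 in shBORIS and 254 in shLUC. It fell on both scales, by 0.43 as deposited (log2 -0.43; limma adjusted p = 1.05e-04) and by 0.91 against the median gene (log2 -0.91, SE 0.08), or -0.59 as the mean of its probe sets. HID1, which is needed for granule maturation in mice, fell by 0.64 against the median gene (log2 -0.64, SE 0.09) and read -0.16 as deposited (limma adjusted p = 0.147). The vesicular monoamine transporter SLC18A2, at 60.2 in shBORIS and 67.9 in shLUC, fell by 0.62 (log2 -0.62, SE 0.09), and the sorting receptor SORCS1 by 0.51 (log2 -0.51, SE 0.06). Neither passed as deposited, SLC18A2 at -0.14 (limma adjusted p = 0.253) and SORCS1 at -0.03 (limma adjusted p = 0.777). SLC18A2, counted among the 8 that fell, passed the filter (62.2) only through its shLUC arrays. Its shBORIS arrays read 61.1 and 59.2. It lies in the dimmest of the 10 bins by mean intensity, whose median relative difference was -0.17. The granule membrane proteins PTPRN and PTPRN2 rose by 0.59 and 0.40 as deposited and did not pass relative to the median gene, at 0.11 and -0.08 (limma adjusted p = 0.246 and 0.322).

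Of 23 genes of granule exocytosis, 14 were tested. As deposited 8 rose, 0 fell and 6 did not pass (median 0.29), beside 77.2% of all tested genes higher and 4.64% lower. Relative to the median gene 2 rose, 7 fell and 5 did not pass (median -0.19), beside 30.3% higher and 28.8% lower. The 2 that rose were synaptotagmins, a family that includes calcium sensors of membrane fusion. SYT4 averaged 228 in shBORIS and 86.3 in shLUC and rose by 0.78 against the median gene (SE 0.07), or 0.38 as the mean of its probe sets. SYT1, the fast calcium sensor of transmitter release, averaged 1009 in shBORIS and 491 in shLUC and rose by 0.54 (SE 0.06). Another synaptotagmin gene, SYT7, read -0.05 relative to the median gene (limma adjusted p = 0.548). Among those that fell relative to the median gene were the vesicle GTPase RAB3A, by 0.52 (log2 -0.52, SE 0.06), and the priming factor UNC13B, by 0.43 (log2 -0.43, SE 0.07). Neither passed as deposited, RAB3A at -0.04 (limma adjusted p = 0.734) and UNC13B at 0.05 (limma adjusted p = 0.661).

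Among the precursors that such granules carry, 12 of 32 listed genes were tested, and 18 of those measured lay below the filter. As deposited 6 rose, 4 fell and 2 did not pass (median 0.32), beside 77.2% of all tested genes higher and 4.64% lower. Relative to the median gene 3 rose, 6 fell and 3 did not pass (median -0.16), beside 30.3% higher and 28.8% lower. SST, the somatostatin precursor, averaged 1644 in shBORIS and 872 in shLUC and rose by 0.42 against the median gene (SE 0.05). ADM (adrenomedullin) and ADCYAP1 (the PACAP precursor), both chosen after their values were seen, rose by 0.54 and 0.40. NMU, NMB, BDNF and NPPC, the precursor of C-type natriuretic peptide, fell on both scales. NMU, the neuromedin U precursor, averaged 341 in shBORIS and 485 in shLUC and fell by 0.97 against the median gene (log2 -0.97, SE 0.06), and NMB, that of neuromedin B, averaged 298 in shBORIS and 408 in shLUC and fell by 0.91 (log2 -0.91, SE 0.06). BDNF, a neurotrophin that is released through the regulated pathway in neurons, averaged 143 in shBORIS and 208 in shLUC and fell by 0.97 (log2 -0.97, SE 0.08). As the mean of their probe sets BDNF read -0.71 and ADM 0.37, both smaller changes, and ADCYAP1 read 0.49, a larger one. The galanin precursor GAL, bright at 1793 in shBORIS and 1226 in shLUC, read 0.07 relative to the median gene (limma adjusted p = 0.322).

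Of 16 transcription factors linked to neuroendocrine genes, 10 were tested. As deposited 6 rose, 0 fell and 4 did not pass (median 0.34), beside 77.2% of all tested genes higher and 4.64% lower. Relative to the median gene 1 rose, 5 fell and 4 did not pass (median -0.13), beside 30.3% higher and 28.8% lower. PHOX2A, a homeodomain factor of noradrenergic neurons, fell by 0.65 (log2 -0.65, SE 0.05), and INSM1, a zinc finger factor of neuroendocrine cells, by 0.51 (log2 -0.51, SE 0.05). MYT1, a neural zinc finger factor, fell by 0.38 (log2 -0.38, SE 0.09), and HAND2, a factor of sympathetic neurons, by 0.31 (log2 -0.31, SE 0.05). As the mean of their probe sets MYT1 read -0.19 and HAND2 -0.15, and after quantile normalization HAND2 read -0.13. None of these 4 passed as deposited: PHOX2A and INSM1 stood at -0.17 and -0.03 (limma adjusted p = 0.145 and 0.786), MYT1 and HAND2 at 0.10 and 0.16 (limma adjusted p = 0.379 and 0.0784). The 1 that rose was GATA2, by 0.25 (limma adjusted p = 0.0137), a call lost without shLUC replicate 2 (0.13). It was also lost with the 60th percentile filter (0.18, limma adjusted p = 0.0602), while the mean of its probe sets read 0.43. The fall of GATA3, at -0.15, was lost without shBORIS replicate 2 (-0.11) or shLUC replicate 2 (-0.09). With the median of all cellular probe sets subtracted GATA3 read -0.0073 (limma adjusted p = 0.926), and with no filter -0.038 (limma adjusted p = 0.572). REST, the repressor of neuronal genes that acts on several granin genes, averaged 101 in shBORIS and 62.6 in shLUC, rose by 0.58 as deposited and read 0.10 against the median gene (limma adjusted p = 0.295). CREB1, a factor that binds cAMP response elements, averaged 200.3 in shBORIS and 153 in shLUC and read -0.12 relative to the median gene (limma adjusted p = 0.313).

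**Figure D5:**
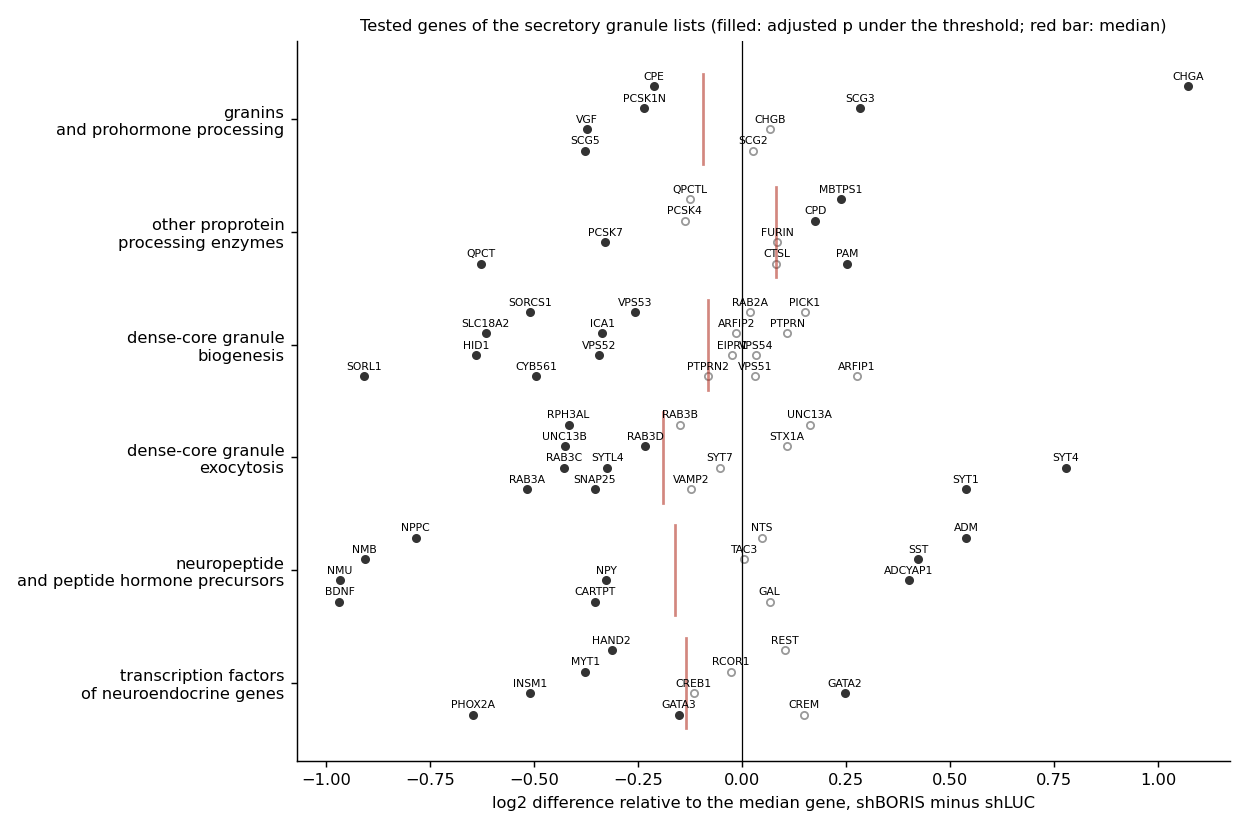
Log2 difference relative to the median gene (shBORIS minus shLUC) of every tested gene in the member list and the 5 related lists; filled points passed the test and red bars are list medians. CHGA, at 1.07, is the rightmost point, and BDNF, NMU, SORL1 and NMB, at -0.91 to -0.97, are the leftmost.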

How the data were processed

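Probe set intensities, 1 column per array, were used as the authors deposited them. Per the labels' protocols, 100 ng of total RNA with added ERCC RNAs was labelled with biotin by a 3′ method for an Affymetrix PrimeView array. The submitters' processing notes list MAS5, affy and R 3.1.3 with no role or order. How the arrays were scaled is not stated in the labels. The precision is limited by the 2 arrays in each group. The p-values rest on the spread between duplicates, which limma pools over genes of similar intensity, and on no other source of variation.

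Of 49495 probe sets, 202 controls were left out. Of the other 49293, 45278 had 1 gene symbol, 1333 had several and 2682 had no annotation. Symbols were updated through Entrez identifiers to RefSeq (GRCh38.p14) for 45208. Each gene was represented by its brightest probe set by mean intensity, and genes under the 40th percentile (intensity 62.2) were left out. Log2(intensity + 16), which understates changes of dim genes, entered limma (version 3.58.1, run under R version 4.3.3), with a trend of variance on intensity and 2 residual degrees of freedom. Two-sided p-values were adjusted by the Benjamini-Hochberg method over all 10946 genes, or over all cellular probe sets for single probe sets other than the brightest. As deposited the prior had infinite degrees of freedom, so a gene's own duplicate spread carried no weight. Very small p-values rest on that assumption. With centring the prior had 7.94, beside the 2 residual degrees of freedom. The fit was tested on simulated arrays with the same noise level for all genes and few changed genes. The real arrays differ from that setting, so the simulation does not show how reliable the calls here are. Promoter windows are reported for some members only.

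The members and lists were chosen with earlier results of these data known. Named genes were all members, CTCFL, up to 4 genes with the smallest p in each list among called genes whose arrays did not overlap, and the 3 genes nearest in pattern to the members with the largest rise and fall. Other genes of a list are named after their values were seen. The check of replicate numbers gave a correlation of 0.10 between same-numbered arrays across genes, and no label pairs them. Alternatives tried were the pseudocount, the filter, the probe set rule, the centring, quantile normalization, the variance trend, a replicate block and leaving out each array.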

Additional observations from a re-analysis of the deposited data

How the results depend on the processing

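The 2-array groups limit all results, and dim probe sets carry the least signal over background. Over 12 alternatives on the deposited scale and 13 on the centred one, CHGA stayed between 1.44 and 1.66 as deposited and between 1.00 and 1.22 after centring, SCG3 between 0.64 and 0.82 and between 0.21 and 0.43, and both kept their calls. SCG5 and VGF kept their relative falls, at -0.49 to -0.23 and -0.43 to -0.23. PCSK1 and PCSK2 gave no values, and VGF none with the 60th percentile filter. The median of all cellular probe sets differed between the groups by 0.33, against 0.48 for the tested genes. With that centring 2 member genes fell in place of 4, 7 member probe sets rose in place of 2 and 3 fell in place of 6, and CHGB rose by 0.21 (limma adjusted p = 0.0435). With no filter 2 member genes fell; in both settings PCSK1N and CPE were the ones lost. These centrings subtract a smaller shift. Without single arrays, member probe sets that fell relative to the median gene numbered 3 to 6. CHGB and SCG2, not called, read -0.0026 and -0.044 with the 60th percentile filter, -0.058 and -0.072 after quantile normalization, and without single arrays CHGB ranged from -0.055 to 0.19 and SCG2 from -0.014 to 0.066. MBTPS1 averaged over its probe sets was called lower, at -0.17 (limma adjusted p = 0.031). With the replicate block 4 member genes rose as deposited in place of 6, since PCSK1N (limma adjusted p = 0.129) and CPE (limma adjusted p = 0.15) lost their calls, and relative to the median gene 2 rose and 4 fell, as without it; the replicate numbers do not pair the arrays. Of 38 called genes of the related lists and CTCFL, in alternatives chosen after seeing the data, 27 kept their calls throughout. Not every gene was tested in every alternative: HID1 and CYB561, for example, gave no value with the 60th percentile filter. Counts in a list moved most for exocytosis genes and precursors that fell, 2 to 10 against 7 and 4 to 12 against 6. Biogenesis genes that rose numbered 0 to 4 against 0. The causes of these changes were not tested.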
